A study of Mus musculus with 8 samples.

Results

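The Hox genes encode the homeodomain transcription factors of 4 clusters, HoxA to HoxD. They were taken here as every gene whose symbol is Hox, a cluster letter and a number and which has a probe set annotated with that symbol alone, with the brightest such probe set standing for the gene. This gave 36 of the 22180 genes named on the array: 9 in HoxA on chromosome 6, 10 in HoxB on chromosome 11, 9 in HoxC on chromosome 15 and 8 in HoxD on chromosome 2. The mouse RefSeq gene table lists 39 Hox genes, and the others were not analysed here.

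Transcript levels came from Affymetrix Mouse Gene 2.1 arrays in 4 groups of wild-type C57BL/6J samples with 2 arrays each. FGF-ESC are pluripotent lines and EpiSC are epiblast stem cells of the primed state, both grown in KODMEM with 20% KSR (serum replacement) and FGF2 on MEF, which are embryonic fibroblast feeders. ESC are embryonic stem cells kept without feeders in DMEM with LIF and the kinase inhibitor pair called 2i, and their sample labels add 15% FCS (serum), which the culture description does not name. The inner cell mass samples, called ICM, were taken by immunosurgery from E3.5 blastocysts and were never cultured. All 3 kinds of line are labelled as made from E3.5 embryos, EpiSC included, and neither the number of lines nor separate cultures or embryo pools are given, so p-values may measure only technical spread. Medium, feeders and cell type changed together between ESC and the other cultures, and RNA of ICM was extracted with another kit than that of the lines, so these cannot be told apart.

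Hox proteins specify position along the body axis. The order of the genes in a cluster follows the order of their expression: genes of low paralog number switch on early and towards the head, and genes of high number later and towards the tail and in the limb buds. In pluripotent cells the clusters are known as targets of Polycomb complexes, which hold them silent, while fibroblasts keep a Hox profile of the body region they came from. Feeder fibroblasts are therefore a known possible source of Hox RNA in cultures on MEF.

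Markers differed between the groups. The mean of 10 naive pluripotency genes was 7.24 and 7.62 on the log2 scale on the FGF-ESC arrays, 5.19 and 5.58 in EpiSC, 8.04 and 8.02 in ESC and 8.0 and 8.03 in ICM. That of 10 primed epiblast genes was 5.44 and 5.64 in FGF-ESC, 6.46 and 6.48 in EpiSC, 4.97 and 5.0 in ESC and 4.95 and 4.87 in ICM. Among 27 fibroblast markers, 25 exceeded 4.24, the median over the whole table, on both FGF-ESC arrays, 19 on both EpiSC arrays, 12 on both ESC arrays and 14 on both ICM arrays. Their mean was 8.39 on FGF-ESC replicate 1 and 7.15 on replicate 2, against 4.36 to 5.12 on the other 6 arrays. The FGF-ESC arrays thus carried RNA of fibroblast markers at unequal levels, and each Hox result below is given on both.

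The Hox genes were mostly dim. Levels of the 36 genes ran from 2.56 to 5.20 over all arrays, and 21 of them (58.3%) were above 4.24 on no array, against 35.3% of all named genes. Only 4 (11.1%), Hoxa6, Hoxc9, Hoxc10 and Hoxd8, were above it on all 8 arrays, against 46.4% of all named genes. On both arrays of a group, 8 (22.2%) were above it in FGF-ESC, 5 (13.9%) in EpiSC, 7 (19.4%) in ESC and 6 (16.7%) in ICM. Among all named genes these shares were 53.1% in FGF-ESC, 53.3% in EpiSC, 53.7% in ESC and 52.2% in ICM. For 1088 olfactory receptor genes, a family of the sensory nose chosen as a comparison after the values were seen, they were 6.07% in FGF-ESC, 6.89% in EpiSC, 7.63% in ESC and 6.71% in ICM. Probe sets differ in brightness for reasons of their own, so these counts describe the probe sets and not amounts of transcript.

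The range of a gene over the 8 arrays had a median of 0.469 on the log2 scale in the 36 Hox genes, against 0.590 for all named genes, and dim genes ranged less. Among genes not above 4.24 on at least 2 arrays the median was 0.454 for 26 Hox genes, against 0.411 for all such genes, and a range of 1 or more occurred in 1 of the 26 (3.85%), against 4.3%. Among the brighter genes the median was 0.527 for 10 Hox genes, against 0.780 for all such genes, and 2 of the 10 (20%) ranged over 1 or more, against 35.7%. The 3 Hox genes of that range were Hoxc6 with 1.77, Hoxc12 with 1.37 and Hoxd13 with 1.25. The mean level of the 36 was 3.89 and 3.79 in FGF-ESC, 3.77 and 3.68 in EpiSC, 3.79 and 3.79 in ESC and 3.73 and 3.83 in ICM. The groups overlapped in this mean, except that both EpiSC arrays were below both FGF-ESC and both ESC arrays.

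**Figure D1:**
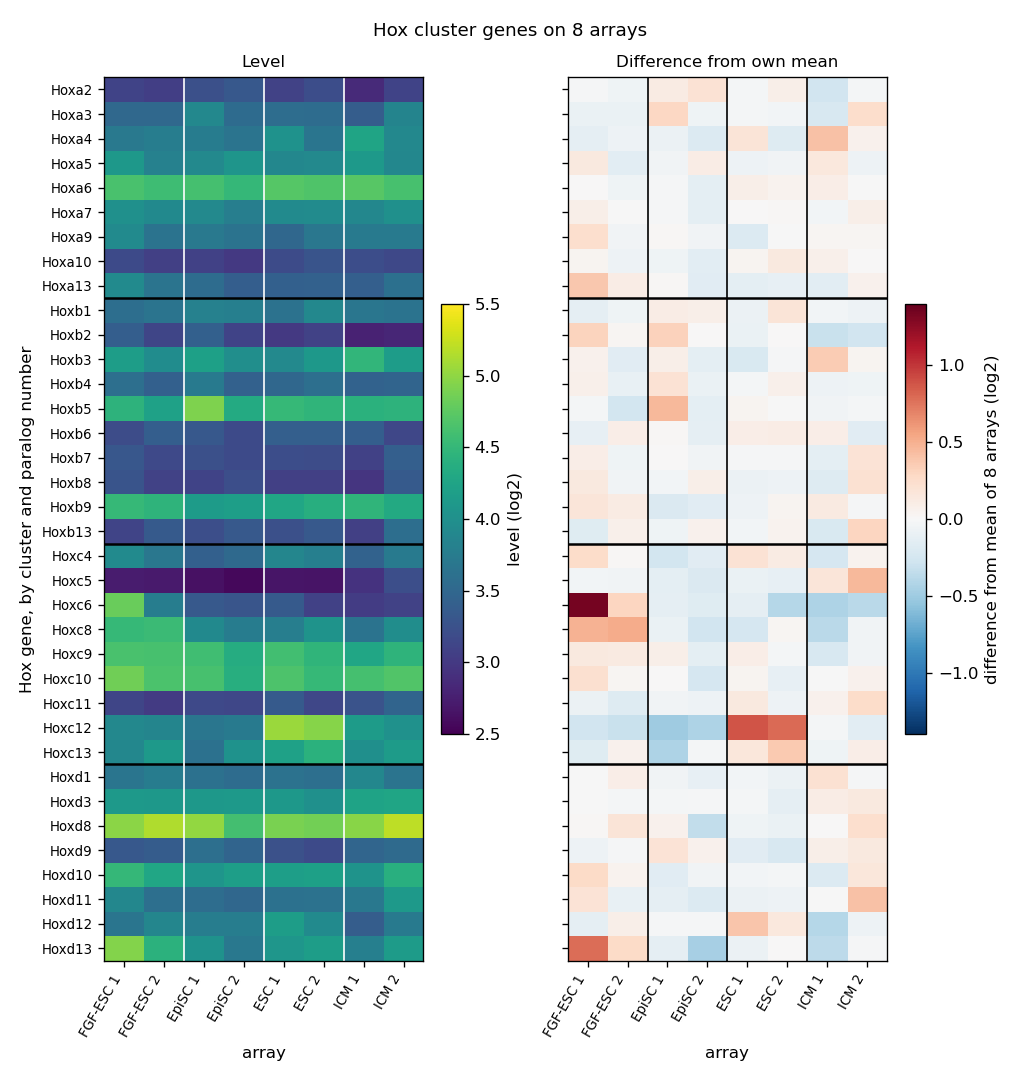
Log2 level of each of the 36 Hox genes on the 8 arrays (left) and its difference from the gene's own mean over the arrays (right), with genes in rows by cluster and paralog number. Levels lie between 2.56 and 5.20, and the strongest departures are Hoxc6 on FGF-ESC replicate 1 (4.81) and Hoxc12 on both ESC arrays (5.05 and 4.96).

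By cluster, 7 of 9 HoxA, 7 of 10 HoxB, 3 of 9 HoxC and 4 of 8 HoxD genes were above 4.24 on no array. All 3 genes with a range of 1 or more lay in HoxC or HoxD. By position, 5 of 7 genes of paralog groups 1 to 3, which pattern the hindbrain and anterior trunk, were above 4.24 on no array. So were 8 of 14 of groups 4 to 8, which pattern the trunk, and 8 of 15 of groups 9 to 13, which pattern the lumbar to tail region and the limbs. Testing required a level above 4.24 on at least 2 arrays. That held for 0 genes of groups 1 to 3, 4 of groups 4 to 8 (Hoxa6, Hoxb5, Hoxc8 and Hoxd8) and 6 of groups 9 to 13 (Hoxb9, Hoxc9, Hoxc10, Hoxc12, Hoxd10 and Hoxd13). The other 26 stayed under the filter, and 1 of them, Hoxc6, still ranged over more than 1. Hoxc8 and Hoxd13 passed the filter only through the FGF-ESC arrays and Hoxc12 only through the ESC arrays, so the filter itself favoured a difference there.

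Each pair of groups was compared with limma over 13597 genes, with a pass defined as an adjusted p below 0.05 and a log2 difference of at least 1. Of the 10 Hox genes tested, 0 were higher and 1, Hoxc12, was lower in FGF-ESC than in ESC, where 6.21% of all tested genes passed (5.27% higher and 0.934% lower). Against EpiSC, 0 of 10 passed in FGF-ESC, where 7.28% of all tested genes did (5.26% higher and 2.02% lower), and 3 of the 10 had an unadjusted p below 0.05. Against ICM, 0 of 10 passed in FGF-ESC, where 14.8% of all tested genes did (9.57% higher and 5.22% lower), and 2 had an unadjusted p below 0.05.

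EpiSC against ESC gave 1 lower, again Hoxc12, and 0 higher, with 7.36% of all tested genes passing (3.86% higher and 3.5% lower). EpiSC against ICM gave 0 of 10, with 15.3% of all tested genes passing (8.48% higher and 6.8% lower) and 1 of the 10 at an unadjusted p below 0.05. ESC against ICM gave 0 of 10, with 11.4% of all tested genes passing (5.82% higher and 5.57% lower) and 1 at an unadjusted p below 0.05. The comparisons share groups, so they are not separate evidence. The share of all tested genes at an unadjusted p below 0.05 was not computed, here or for the gene lists below. Counts at that cut therefore have no background beside them.

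Dropping the fold minimum gave 2 Hox genes for FGF-ESC minus ESC (15.3% of all tested genes), 2 for FGF-ESC minus EpiSC (19.8%) and 2 for FGF-ESC minus ICM (36.7%). It gave 1 for EpiSC minus ESC (19%), 1 for EpiSC minus ICM (38.4%) and 1 for ESC minus ICM (33%). These were Hoxc12, Hoxc8 and Hoxd13, in the comparisons described with each gene. Each had passed the filter only through the group where it was highest. Dropping the filter on dim genes instead, over all 36, gave 1 for FGF-ESC minus ESC (3.74% of all named genes), 0 for FGF-ESC minus EpiSC (4.46%) and 1 for FGF-ESC minus ICM (9.28%). It gave 1 for EpiSC minus ESC (4.52%), 0 for EpiSC minus ICM (9.5%) and 0 for ESC minus ICM (7.09%). The 2 counts of 0 against ICM stood beside 5 and 4 genes at an unadjusted p below 0.05, and that against EpiSC beside 6. The share of all named genes at that unadjusted cut was not computed, so these counts are not read as more than usual.

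Over all 36 genes, tested or not, the median difference stayed near that of all named genes. It was 0.06 for FGF-ESC minus ESC (all named genes -0.05), 0.07 for FGF-ESC minus EpiSC (-0.04) and -0.02 for FGF-ESC minus ICM (-0.06). It was -0.06 for EpiSC minus ESC (-0.01), -0.07 for EpiSC minus ICM (-0.02) and -0.03 for ESC minus ICM (-0.01). The genes within 0.5 of no difference numbered 32, 33, 33, 35, 36 and 34 of 36 in these 6 comparisons, in the order given. The share of all named genes within 0.5 was not computed, and dim genes ranged less. These counts therefore do not set the Hox genes apart from other dim genes. Differences of 1 or more between group means occurred for Hoxc12 and Hoxc6 alone.

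**Figure D2:**
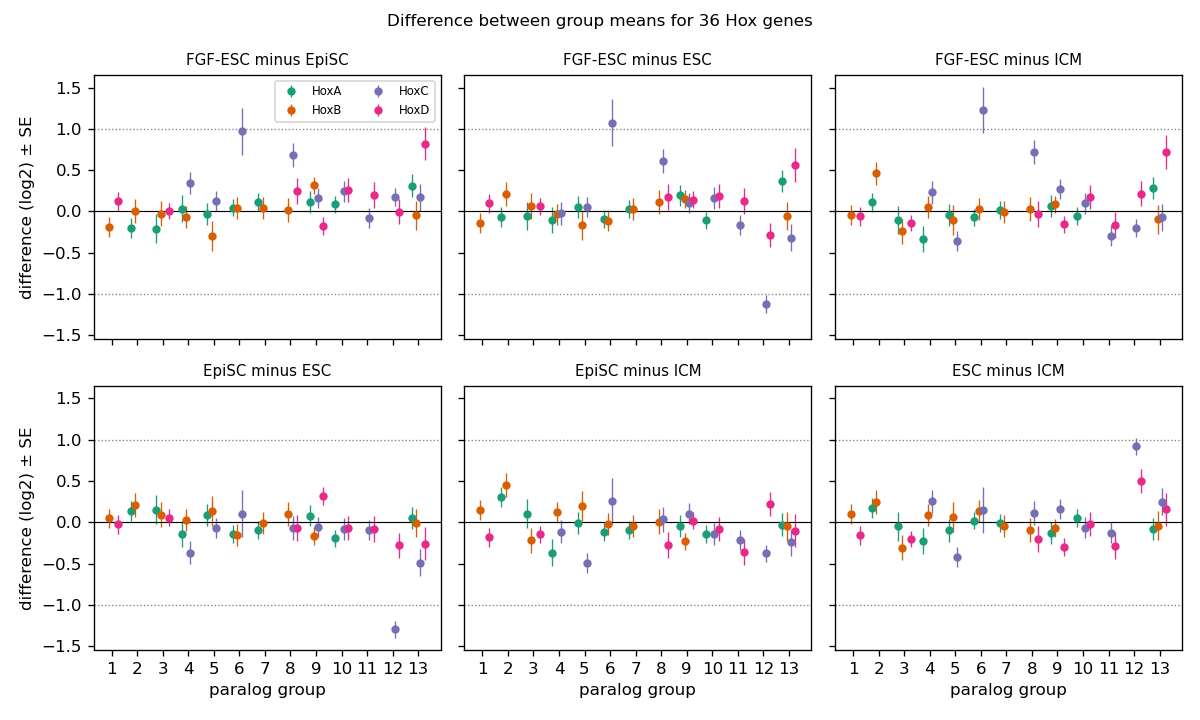
Difference between group means (log2, vertical axis, ± limma SE of the fit without a filter on dim genes) for the 36 Hox genes by paralog group (horizontal axis) and cluster (colour), in 6 comparisons. Most genes lie within 0.5 of 0 (33 of 36 for FGF-ESC minus EpiSC), with Hoxc12 at -1.12 against ESC and Hoxc6 at 1.08 against ESC as exceptions in FGF-ESC.

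Hoxc12 lies near the 5′ end of HoxC and belongs to the posterior class, which is known from the posterior trunk and the limbs. Its probe set (17315490) read 3.90 and 3.86 in FGF-ESC, 3.67 and 3.74 in EpiSC, 5.05 and 4.96 in ESC and 4.15 and 4.02 in ICM. Both ESC arrays were above the other 6, and those of FGF-ESC, EpiSC and ICM all stayed under 4.24. The filter let Hoxc12 in through the ESC arrays alone, the group where it was highest. In FGF-ESC it was lower than in ESC by a log2 difference of -1.12 ± 0.11 (SE, n = 2 arrays each, limma adjusted p = 0.00079). Over 19 alternative settings that adjusted p ranged from 0.000668 to 0.0202. In EpiSC it was lower than in ESC by -1.30 ± 0.11 (limma adjusted p = 0.000163), with a range over 19 alternatives from 6.48e-06 to 0.00448. ESC minus ICM was 0.92 ± 0.11 (limma adjusted p = 0.000568), under the fold minimum. Without the filter the limma adjusted p was 0.00081 for FGF-ESC minus ESC, 0.000153 for EpiSC minus ESC and 0.000535 for ESC minus ICM. EpiSC minus ICM was -0.38 ± 0.11 (limma adjusted p = 0.0314), which went up to 0.157 over the alternatives. FGF-ESC did not differ detectably from EpiSC (0.17, limma adjusted p = 0.342) or ICM (-0.20, limma adjusted p = 0.203). Leaving out either ESC array put the gene under the filter, so it was no longer tested. Without the filter FGF-ESC minus ESC was -1.08 with ESC replicate 1 left out and -1.17 with ESC replicate 2 left out. Each of these fits leaves 1 ESC array. The mean of the fibroblast list in ESC, at 4.36 and 4.38, was the lowest of the groups, close to ICM at 4.42 and 4.59. Any link of that list to the Hoxc12 level was not tested.

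The genes beside Hoxc12 are named here after their values were seen. Hoxc13, the outermost gene of the cluster, read 3.89 and 4.11 in FGF-ESC, 3.62 and 4.03 in EpiSC, 4.22 and 4.42 in ESC and 3.99 and 4.15 in ICM. Both ESC arrays were highest, close above the higher ICM array. Hoxc11 read 3.12 and 3.03 in FGF-ESC, 3.16 and 3.14 in EpiSC, 3.35 and 3.14 in ESC and 3.27 and 3.46 in ICM, with overlap between ESC and both EpiSC and ICM. Hotair, a long noncoding RNA transcribed from HoxC between Hoxc11 and Hoxc12, read 3.41 and 3.61 in FGF-ESC, 3.52 and 3.46 in EpiSC, 3.99 and 4.30 in ESC and 3.43 and 4.02 in ICM. It was under the filter, and an ICM array lay between the ESC arrays. In HoxD, Hoxd12 was also highest on both ESC arrays, with 3.67 and 3.87 in FGF-ESC, 3.78 and 3.77 in EpiSC, 4.18 and 3.93 in ESC and 3.39 and 3.72 in ICM. It was not tested, and in the fit without a filter ESC minus ICM was 0.50 (limma adjusted p = 0.0477), under the fold minimum.

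Hoxc6, Hoxc8 and Hoxd13 were highest in FGF-ESC and are described after their values were seen. Hoxc6 acts in trunk patterning, and its probe set read 4.81 on FGF-ESC replicate 1 and 3.77 on replicate 2, 3.34 and 3.30 in EpiSC, 3.35 and 3.07 in ESC and 3.04 and 3.09 in ICM. Both FGF-ESC arrays were above the other 6, but they differed from each other by 1.04. With 1 array above 4.24, Hoxc6 was not tested. In the fit without a filter it was higher in FGF-ESC than in ICM by 1.23 ± 0.28 (limma adjusted p = 0.0149), and it passed there. The same fit gave 1.08 ± 0.28 for FGF-ESC minus ESC (limma adjusted p = 0.0529) and 0.97 ± 0.28 for FGF-ESC minus EpiSC (limma adjusted p = 0.0638). Leaving out FGF-ESC replicate 1 lowered the difference to 0.56 against ESC, 0.45 against EpiSC and 0.71 against ICM, below the fold minimum in all 3. Leaving out replicate 2 gave 1.60 against ESC, 1.49 against EpiSC and 1.75 against ICM. Each of these fits leaves 1 FGF-ESC array, so the spread comes from the other groups and not from FGF-ESC.

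Hoxc8, which patterns the thoracic region, read 4.51 and 4.54 in FGF-ESC, 3.93 and 3.76 in EpiSC, 3.78 and 4.04 in ESC and 3.64 and 3.97 in ICM. The FGF-ESC arrays were alike and did not overlap with the other 6. FGF-ESC minus ESC was 0.61 ± 0.15 (limma adjusted p = 0.0331), minus EpiSC 0.69 ± 0.15 (limma adjusted p = 0.0169) and minus ICM 0.72 ± 0.15 (limma adjusted p = 0.00725), all under the fold minimum. The filter let Hoxc8 in through the FGF-ESC arrays alone. Without the filter the limma adjusted p was 0.0395, 0.02 and 0.00852 in that order. Over 18 alternatives that could test it, the adjusted p against ESC reached 0.26 and that against EpiSC 0.118, while that against ICM stayed at or below 0.0443. Leaving out either FGF-ESC array under the filter, or a stricter filter, left Hoxc8 and Hoxd13 untested.

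Hoxd13, which patterns digits and the genital and hind gut region, read 4.95 on FGF-ESC replicate 1 and 4.43 on replicate 2, 4.03 and 3.70 in EpiSC, 4.08 and 4.17 in ESC and 3.80 and 4.14 in ICM. Both FGF-ESC arrays were above the others, with replicate 1 higher by 0.52. FGF-ESC minus EpiSC was 0.82 ± 0.21 (limma adjusted p = 0.0259) and minus ICM 0.72 ± 0.21 (limma adjusted p = 0.0256), both under the fold minimum. FGF-ESC minus ESC was 0.56 ± 0.21 (limma adjusted p = 0.105). The filter let Hoxd13 in through the FGF-ESC arrays alone. Without the filter the limma adjusted p was 0.0332 against EpiSC, 0.0331 against ICM and 0.132 against ESC. Without a filter and without FGF-ESC replicate 2, the difference from EpiSC was 1.08. Without FGF-ESC replicate 1 the difference was 0.56 from EpiSC, 0.30 from ESC and 0.46 from ICM. Each of these fits leaves 1 FGF-ESC array, so the spread comes from the other groups and not from FGF-ESC. In alternatives that kept both arrays of the groups compared, the limma adjusted p against EpiSC ranged from 0.0247 to 0.0854. It ranged from 0.0867 to 0.144 against ESC and from 0.0223 to 0.0777 against ICM.

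**Figure D3:**
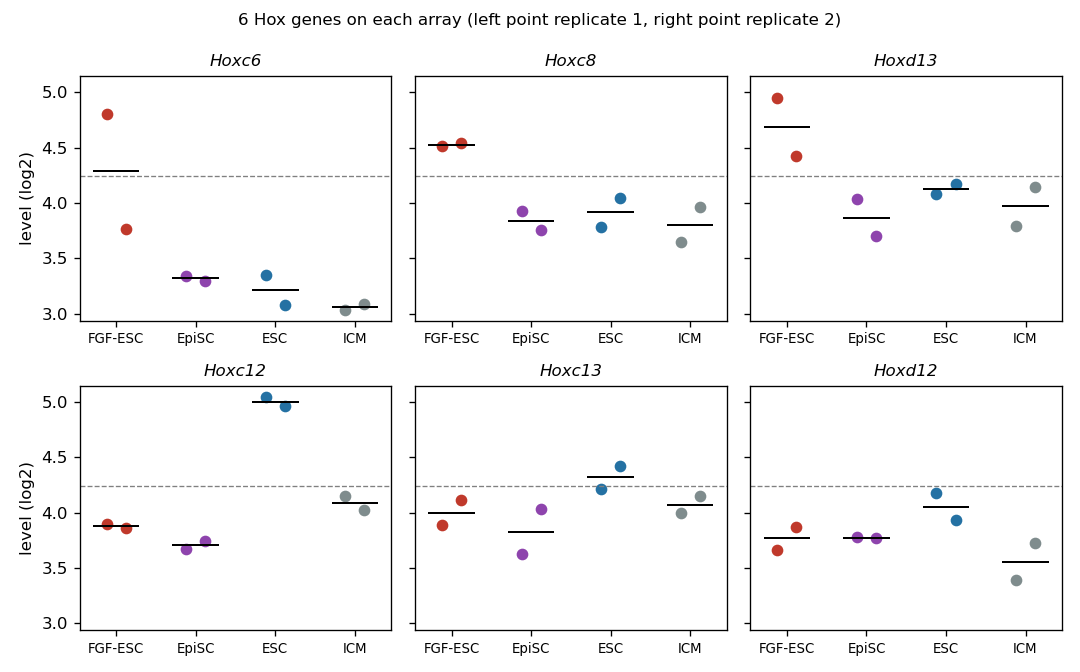
Log2 level of 6 Hox genes on each array, with replicate 1 left and replicate 2 right within each group, the bar the group mean of 2 arrays and the dashed line at 4.24. Hoxc6, Hoxc8 and Hoxd13 lie highest in FGF-ESC (Hoxc8 at 4.51 and 4.54) and Hoxc12, Hoxc13 and Hoxd12 in ESC (Hoxc12 at 5.05 and 4.96).

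Counting genes with both arrays of a group above the other 6 arrays gave 5 of 36 for FGF-ESC (13.9%, against 6.54% of all named genes): Hoxa13, Hoxc6, Hoxc8, Hoxc9 and Hoxd13. The count was 1 for EpiSC (2.78%, against 10.2%), Hoxa2, a hindbrain gene. It was 4 for ESC (11.1%, against 9.24%), Hoxb6, Hoxc12, Hoxc13 and Hoxd12, and 2 for ICM (5.56%, against 17.2%), Hoxc5 and Hoxd3. These names follow from the counts and carry no test. Hoxc9 shows how small such a gap can be, with 4.63 and 4.62 in FGF-ESC against 4.58 and 4.35 in EpiSC, 4.59 and 4.46 in ESC and 4.27 and 4.45 in ICM.

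The 2 FGF-ESC arrays allow the Hox genes to be set beside the fibroblast markers. All 27 fibroblast markers were higher on replicate 1 than on replicate 2, with a median difference of 1.18. Of 16 matched transcription factors of trunk and limb mesenchyme, 11 were higher on replicate 1, with a median of 0.27, and 3 of the 16, Prrx1, Twist1 and Twist2, are also on the fibroblast list. Without these, 8 of 13 were higher on replicate 1, with a median of 0.17. Of the 36 Hox genes, 26 (72.2%) were higher on replicate 1, with a median of 0.08, against 44% of all named genes and a median of -0.03. Hoxc6 with 1.04 was the 1 Hox gene whose difference was near the fibroblast median, while Hoxd13 had 0.52 and Hoxc8 -0.03. On these 2 arrays the fibroblast mean was 8.39 and 7.15 and the Hox mean 3.89 and 3.79. The sizes of their differences are therefore not directly comparable. By cluster, 8 of 9 HoxA, 7 of 10 HoxB, 7 of 9 HoxC and 4 of 8 HoxD genes were higher on replicate 1. In these bulk samples, fewer cells of a type and less RNA per cell cannot be told apart, and the part of feeder RNA in the Hox levels was not tested.

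**Figure D4:**
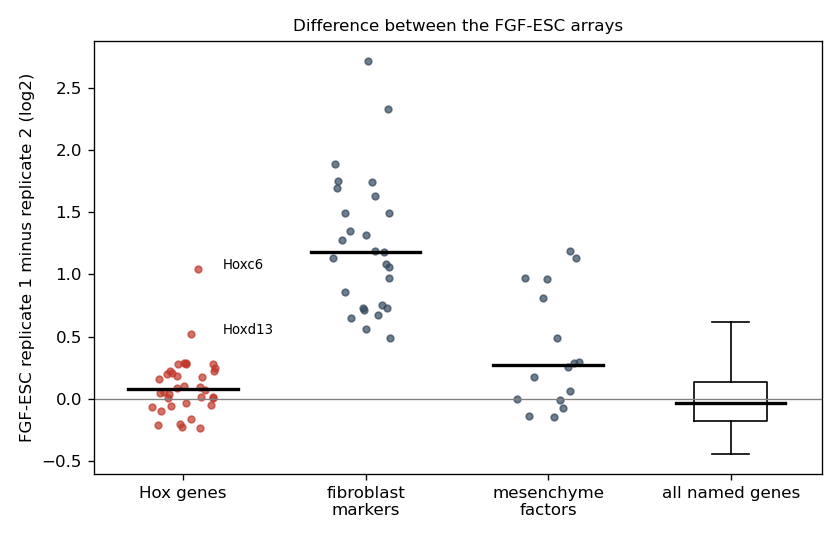
FGF-ESC replicate 1 minus replicate 2 (log2, vertical axis) for 36 Hox genes, 27 fibroblast markers and 16 mesenchyme factors (points, bar at the median) and for all named genes (box of quartiles, whiskers at percentiles 5 and 95). All fibroblast points lie above 0 around a median of 1.18, while the Hox median is 0.08 with Hoxc6 at 1.04.

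Fibroblast markers were compared between groups in the same fit. Of 25 tested, 23 were higher and 0 lower in FGF-ESC than in ESC, than in EpiSC and than in ICM. EpiSC, also grown on feeders, had 5 higher and 1 lower than ESC. Among the mesenchyme factors, 7 were tested, and 3 rose in FGF-ESC against ESC, 2 against EpiSC and 3 against ICM, with 0 lower in each. Of the 5 tested that are not on the fibroblast list, 1 was higher in each of these comparisons. Prrx1, a factor of limb bud mesenchyme that is also on the fibroblast list, had 7.86 and 6.88 in FGF-ESC, 4.16 and 4.17 in EpiSC, 3.90 and 3.92 in ESC and 3.74 and 4.41 in ICM. FGF-ESC minus ESC was 3.46 ± 0.31 for Prrx1 (limma adjusted p = 0.000459).

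Hoxd8 and Hoxa6 had the highest means among the genes that passed in no comparison. Hoxd8, which acts in the trunk, read 4.97 and 5.14 in FGF-ESC, 5.02 and 4.61 in EpiSC, 4.90 and 4.86 in ESC and 4.97 and 5.20 in ICM. Hoxa6, also a trunk gene, read 4.64 and 4.57 in FGF-ESC, 4.62 and 4.49 in EpiSC, 4.71 and 4.68 in ESC and 4.73 and 4.62 in ICM. In Hoxa6 both FGF-ESC arrays and both EpiSC arrays were below both ESC arrays, and in Hoxd8 ESC lay between the EpiSC arrays. Neither gene passed in any of the 6 comparisons, and the difference farthest from 0 was -0.27, that of Hoxd8 for EpiSC minus ICM. Hoxb5, which has 2 probe sets and was singled out after its values were seen, read 4.44 and 4.21 in FGF-ESC, 4.92 and 4.34 in EpiSC, 4.51 and 4.47 in ESC and 4.42 and 4.44 in ICM on the brighter one. On the other it read 4.40 and 3.92 in FGF-ESC, 4.10 and 4.06 in EpiSC, 4.18 and 4.13 in ESC and 4.48 and 4.56 in ICM. The brighter set had its highest array in EpiSC and the dimmer one in ICM, so they disagree on the highest group.

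Genes just outside the clusters were read on the same arrays. The 3 nearest named protein-coding genes on each side of each cluster gave 24 genes, of which 21 were tested, and 19 were above 4.24 on both FGF-ESC arrays, 17 on both EpiSC, 20 on both ESC and 20 on both ICM arrays. The counts of higher and lower genes were 0 and 1 for FGF-ESC minus ESC, 2 and 0 for FGF-ESC minus EpiSC, 1 and 2 for FGF-ESC minus ICM, 0 and 1 for EpiSC minus ESC, 1 and 2 for EpiSC minus ICM and 2 and 2 for ESC minus ICM. Calcoco2, a selective autophagy receptor beyond Hoxb13, had 5.07 and 5.32 in FGF-ESC, 3.61 and 3.59 in EpiSC, 7.83 and 8.04 in ESC and 10.70 and 10.95 in ICM. Its groups did not overlap, and FGF-ESC minus ICM was -5.63 ± 0.15 (limma adjusted p = 2.25e-07). Ttll6, between Calcoco2 and Hoxb13, was lower in FGF-ESC than in ICM by -1.86 on the log2 scale (limma adjusted p = 0.000184). At the other end of HoxD, Nfe2l2, the NRF2 factor of the oxidative stress response, was higher in FGF-ESC than in EpiSC by 1.12 (limma adjusted p = 0.000458). In HoxB the outermost gene, Hoxb13, also chosen after its values were seen, had 3.11 and 3.35 in FGF-ESC, 3.22 and 3.34 in EpiSC, 3.24 and 3.33 in ESC and 3.07 and 3.58 in ICM, with overlap throughout.

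**Figure D5:**
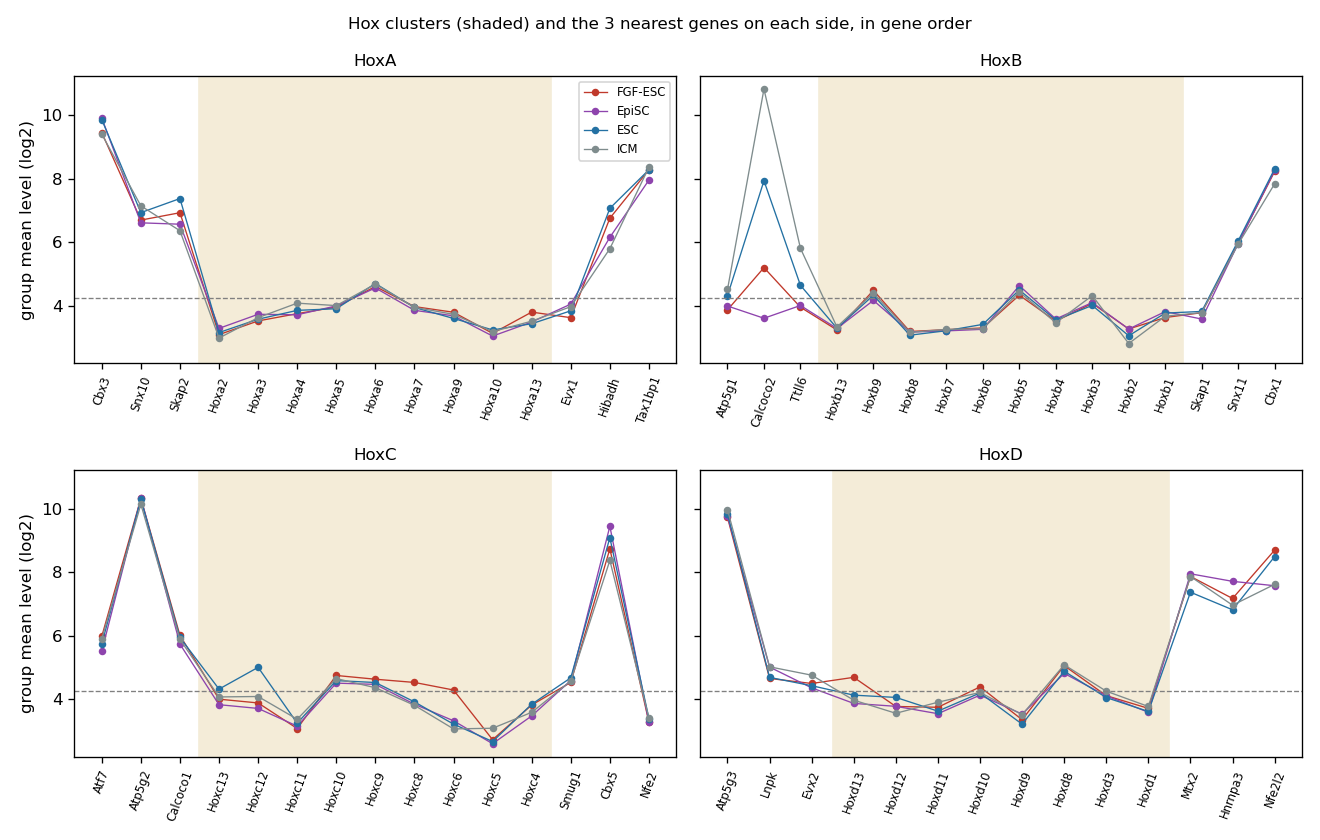
Mean log2 level of each group (2 arrays) for the Hox genes (shaded) and the 3 nearest named genes on each side of each cluster, in gene order, with lines only to guide the eye and the dashed line at 4.24. Levels of different genes come from different probe sets, and the group lines part at Calcoco2 (3.61 and 3.59 in EpiSC, 10.70 and 10.95 in ICM) while they stay close through HoxB.

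The clusters also hold microRNAs and other noncoding genes. Of 19 listed noncoding and Evx genes of the clusters, 9 matched a single-symbol probe set and 4 were tested. Of these, 0 passed in any comparison by limma, and the largest count at an unadjusted p below 0.05 was 3 of 4, for EpiSC minus ICM. The microRNA genes with a value are Mir10b in HoxD, Mir196a-1 in HoxB, and Mir196a-2 and Mir615 in HoxC. Their mature sequences, credited to RefSeq on GRCm38.p6 with the seed (bases 2 to 8) in capitals, show why Mir196a-1 and Mir196a-2 count as copies: both give the same miR-196a-5p.
miR-10b-5p: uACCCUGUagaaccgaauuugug
miR-196a-5p: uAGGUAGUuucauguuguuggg
miR-615-3p: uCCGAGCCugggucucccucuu
No seed is shared by these 3. Probe sets for a microRNA gene do not tell its precursor from the mature form. Mir196a-1, whose product targets Hox transcripts and which was chosen after its values were seen, read 4.39 and 4.5 in FGF-ESC, 4.68 and 4.53 in EpiSC, 4.68 and 4.88 in ESC and 5.27 and 4.98 in ICM. ICM was highest on both arrays, and FGF-ESC minus ICM was -0.69 ± 0.15 (limma adjusted p = 0.00707), under the fold minimum. Mir10b was between 2.07 and 2.32 on all arrays.

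Promoter sequence was available for 20 of the 36 genes in the RefSeq table (GRCm38.p6, 250 bases before to 50 after the first listed start). Most of the 20 lie in HoxA or HoxD. Hoxc4 alone came from HoxC, and Hoxc6, Hoxc8 and Hoxc12 were not among them. CpG dinucleotides, which Polycomb-bound promoters are known to be rich in, had a median of 13.5 per 300 bases in the 20, against 7 in all 27025 promoters. The GC content had a median of 58.7% against 52.7%. By a threshold of observed over expected CpG above 0.6 and GC above 50%, 8 of 20 (40%) were CpG-rich, against 33.9% of all. The promoters of Hoxd13 (chr2:74667975-74668274, + strand) and Hoxd12 (chr2:74674763-74675062, + strand), neighbours of which Hoxd13 was highest in FGF-ESC and Hoxd12 in ESC, are shown with each CpG in capitals.
Hoxd13: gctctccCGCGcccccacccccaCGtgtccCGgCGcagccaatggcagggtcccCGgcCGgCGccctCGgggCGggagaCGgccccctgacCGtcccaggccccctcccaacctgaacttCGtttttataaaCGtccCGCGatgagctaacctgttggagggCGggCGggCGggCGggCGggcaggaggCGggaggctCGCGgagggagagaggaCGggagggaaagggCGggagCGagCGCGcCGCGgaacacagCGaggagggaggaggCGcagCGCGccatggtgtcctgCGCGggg
Hoxd12: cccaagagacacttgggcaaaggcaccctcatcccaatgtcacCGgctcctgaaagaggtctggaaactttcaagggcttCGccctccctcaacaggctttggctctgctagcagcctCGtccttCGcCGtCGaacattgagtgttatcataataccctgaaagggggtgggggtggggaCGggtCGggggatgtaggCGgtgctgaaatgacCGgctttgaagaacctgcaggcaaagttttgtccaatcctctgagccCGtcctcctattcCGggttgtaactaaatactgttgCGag
They hold 37 and 13 CpG. Motifs were searched on both strands, counting only matches that do not overlap, and a match is only a match of letters. The Hoxd13 sequence shown holds further GC boxes that overlap counted ones and were left out. TATAAA (the TATA box) was in 2 of 20 (10%, against 14.2% of all promoters) and GGGCGG (the GC box) in 9 (45%, against 35.9%), with 5 GC boxes and 1 TATA box in Hoxd13 and neither in Hoxd12. CTTTGAT (a TCF site, the end point of WNT signals) was in 1 (5%, against 3.72%), Hoxd8, with 2 copies. TGATTNAT (a joint PBX and HOX site) was in 1 (5%, against 3.36%), Hoxa2. TTCNNNGAA (a STAT site) was in 0 of 20, against 8.47% of all.

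Genes that control or assist the Hox clusters were counted in the same comparisons. TALE proteins bind DNA together with Hox proteins, and 8 of 9 were matched and tested. Pbx3, one of them, had 5.23 and 5.21 in FGF-ESC, 6.88 and 6.87 in EpiSC, 4.77 and 4.62 in ESC and 4.10 and 4.12 in ICM, with no overlap between the groups. It was lower in FGF-ESC than in EpiSC by -1.66 ± 0.11 (limma adjusted p = 8.03e-05) and higher in EpiSC than in ESC by 2.18 ± 0.11 (limma adjusted p = 1.84e-05). The higher and lower counts of the 8 were 0 and 0 for FGF-ESC minus ESC (6 at an unadjusted p below 0.05), 0 and 1 for FGF-ESC minus EpiSC, 1 and 0 for FGF-ESC minus ICM, 1 and 0 for EpiSC minus ESC, 3 and 0 for EpiSC minus ICM and 0 and 1 for ESC minus ICM. Meis1, another TALE protein, was the 1 lower in ESC than in ICM (-1.23, limma adjusted p = 0.00812), and it did not pass without ESC replicate 2 (-1.10, limma adjusted p = 0.0684) or without ICM replicate 1 (-1.10, limma adjusted p = 0.0584). Named genes of this and the next lists were taken by their adjusted p.

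Of upstream activators and ParaHox genes, 11 of 13 were matched and 5 tested. Egr2, which activates Hox genes in the hindbrain, was higher in FGF-ESC than in ESC by 1.95 ± 0.23 (limma adjusted p = 0.00155), and it had 7.19 and 6.70 in FGF-ESC, 6.11 and 6.33 in EpiSC, 4.83 and 5.15 in ESC and 4.82 and 5.34 in ICM. Fgf8, a ligand of the tail bud and primitive streak, had 3.78 and 3.18 in FGF-ESC, 5.68 and 5.41 in EpiSC, 3.52 and 3.46 in ESC and 3.81 and 3.55 in ICM. It was lower in FGF-ESC than in EpiSC by -2.07 ± 0.20 (limma adjusted p = 0.000413). Leaving out either EpiSC array put Fgf8 under the filter. Cdx2, which activates trunk Hox genes and also marks trophectoderm, had 3.72 and 4.06 in FGF-ESC, 4.21 and 4.33 in EpiSC, 4.26 and 4.01 in ESC and 5.76 and 5.02 in ICM. It was lower in FGF-ESC than in ICM by -1.50 ± 0.24 (limma adjusted p = 0.00165). T had no single-symbol probe set and was not analysed here.

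Retinoic acid is a known inducer of anterior Hox genes, and 10 of 11 genes of its pathway were matched and tested. FGF-ESC minus ESC gave 3 higher and 0 lower, FGF-ESC minus EpiSC 1 and 0, FGF-ESC minus ICM 3 and 1, EpiSC minus ESC 3 and 0, EpiSC minus ICM 3 and 1, and ESC minus ICM 2 and 1. Crabp1, a cytoplasmic carrier of retinoic acid, had 10.72 and 10.45 in FGF-ESC, 8.25 and 8.61 in EpiSC, 6.99 and 6.77 in ESC and 4.23 and 5.07 in ICM. It was higher in FGF-ESC than in ESC by 3.71 ± 0.26 (limma adjusted p = 0.000153). Crabp2, the related carrier, was higher by 2.26 (limma adjusted p = 0.000203). Dhrs3, which reduces retinaldehyde, had 7.01 on FGF-ESC replicate 1 and 5.88 on replicate 2, 7.55 and 6.97 in EpiSC, 5.15 and 5.20 in ESC and 4.88 and 5.04 in ICM. FGF-ESC minus ESC was 1.27 for Dhrs3 (limma adjusted p = 0.038), and replicate 1 was the higher array, as for the fibroblast markers, whose part in this was not tested. The difference was 0.71 without FGF-ESC replicate 1 and 1.83 without FGF-ESC replicate 2, in fits with 1 FGF-ESC array each. Dhrs3 did not pass in any fit that leaves out 1 array of another group. Rarb, a retinoic acid receptor that retinoic acid itself induces, was lower in FGF-ESC than in ICM by -1.48 (limma adjusted p = 8.45e-05).

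Polycomb genes keep Hox clusters silent and trithorax genes keep them active. The list of 18 matched Polycomb genes also holds Kdm6a and Kdm6b, demethylases that remove the Polycomb histone mark, and neither passed in any comparison. Of the 18, 16 were tested, and 0 passed for FGF-ESC minus ESC (5 at an unadjusted p below 0.05), for FGF-ESC minus EpiSC (4) and for EpiSC minus ESC (7). FGF-ESC minus ICM gave 1 higher and 1 lower, EpiSC minus ICM 1 and 2, and ESC minus ICM 2 and 0. Phc1, a subunit of Polycomb repressive complex 1, had 8.59 and 8.86 in FGF-ESC, 8.97 and 9.15 in EpiSC, 8.71 and 8.83 in ESC and 5.43 and 6.01 in ICM. It was higher in FGF-ESC than in ICM by 3.0 ± 0.20 (limma adjusted p = 1.91e-05), and Suz12, a core subunit of complex 2, was lower by -1.16 ± 0.14 (limma adjusted p = 0.000378). Of 6 matched trithorax genes, all tested, 1 passed as higher in EpiSC and in ESC than in ICM, Men1, the scaffold menin (1.15 and 1.03), and ESC minus ICM was under the fold minimum without ICM replicate 1 (0.94). In the other 4 comparisons 0 of 6 passed by limma, with 4, 1, 2 and 2 at an unadjusted p below 0.05 for FGF-ESC minus ESC, FGF-ESC minus EpiSC, FGF-ESC minus ICM and EpiSC minus ESC.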

How the data were processed

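Arrays of 8 mouse samples in 4 groups were used. The authors deposited 1 value per probe set and array, which per the submitters' processing notes came from Affymetrix Expression Console 1.3.1. The sources used here do not give the summarisation, background correction or library files. The deposited values, 1.63 to 12.22 with array medians of 4.16 to 4.28, were read as log2 intensities and used without further normalization.

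Of 41345 probe sets, 23521 were annotated with 1 gene, 1814 with several and 16010 with none. The brightest single-gene probe set by mean over the 8 arrays stood for a gene, which named 22180 genes. Genes above 4.24, the median over the whole table, on at least 2 arrays were tested (13597). The values name no genome build, so probe positions are not given, and chromosomes are RefSeq's. Groups were compared in limma 3.58.1 (R 4.3.3) with 1 means model over all 8 arrays and 4 residual degrees of freedom, and Benjamini-Hochberg adjustment within each of 6 comparisons. The SE is pooled over all groups. The fit was tested on simulated data. The number of arrays limits the precision.

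The members, gene lists and rules were chosen with earlier results of these data known. Per-array values were given for members that passed and the 2 others with the highest mean, and up to 4 passing genes per list. Other genes with per-array values were chosen after those values were seen. Alternatives were other scalings, filters, probe set means, a replicate block, array weights, fits of the compared groups alone and each array left out.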

Additional observations from a re-analysis of the deposited data

Results flagged for a closer look

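A probe set in the HoxA cluster (17466861) is annotated with 2 gene symbols, Mira and Hoxa7, and therefore entered no comparison. It read 5.72 and 5.36 in FGF-ESC, 4.75 and 4.61 in EpiSC, 4.69 and 4.89 in ESC and 4.46 and 4.70 in ICM. The FGF-ESC mean was 0.856 above the mean of the other 6 arrays on the log2 scale. It was the 1 of 7 multi-symbol Hox probe sets with both FGF-ESC arrays above all others, and it was singled out because it lies outside the genes compared. FGF-ESC replicate 1, which had the higher fibroblast markers, was also the higher here. The single-symbol probe set of Hoxa7 read 4.01 and 3.92 in FGF-ESC, 3.91 and 3.79 in EpiSC, 3.93 and 3.95 in ESC and 3.89 and 4.0 in ICM. On that set FGF-ESC overlapped with both ESC and ICM, and its lower array was only just above the higher EpiSC array. No test was run on the multi-symbol set.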

How the results depend on the processing

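The count of Hox genes past the threshold kept its value under quantile normalization, centring on the median, the mean of probe sets, a stricter filter, array weights and fits of the compared groups alone, in each of the 6 comparisons that these settings allowed. The stricter filter tested only 2 Hox genes, Hoxc12 and Hoxd8. The mean of probe sets could change the level of Hoxb5 alone, the member with 2 single-symbol probe sets. These 2 settings therefore left little room for the count to move. Without a fold minimum the count became 2 for FGF-ESC minus ESC, FGF-ESC minus EpiSC and FGF-ESC minus ICM. It became 1 for EpiSC minus ICM and ESC minus ICM. Without a filter on dim genes it became 1 for FGF-ESC minus ICM, which is Hoxc6. With arrays left out, with and without that filter, it ranged from 0 to 2 for FGF-ESC minus ESC, 0 to 2 for FGF-ESC minus EpiSC, 0 to 1 for FGF-ESC minus ICM and 0 to 1 for EpiSC minus ESC. The 0 for FGF-ESC minus ESC and EpiSC minus ESC came from leaving out either ESC array under the filter, which then no longer tests Hoxc12. Leaving out either FGF-ESC array under the filter, or the stricter filter, gave no value for Hoxc8 and Hoxd13, which were then not tested. The 2 came from leaving out FGF-ESC replicate 2 without the filter, a combination added after the data were seen, which adds Hoxc6 (with Hoxd13 against EpiSC). Hoxc6 also passed against ICM with each ESC array left out without the filter. A fit without an array leaves 1 array in that group, so its counts hold no spread within that group.

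Differences near 0 turned sign in some settings, and none of these passed. For FGF-ESC minus ICM, Hoxd8 became 0.0146 with arrays centred on the median and 0.0554 without a filter and FGF-ESC replicate 1. For ESC minus ICM, Hoxa6 became -0.0278 under quantile normalization and -0.0111 with arrays centred, and Hoxc8 became -0.0214 without a filter and ESC replicate 2. For EpiSC minus ESC, Hoxc8 became 0.0567 in that setting. With single arrays left out, Hoxa6 ranged from -0.0176 to 0.109 for FGF-ESC minus EpiSC and from -0.0309 to 0.0715 for ESC minus ICM. Hoxd8 ranged from -0.142 to 0.0888 for FGF-ESC minus ICM and from -0.273 to 0.134 for EpiSC minus ESC. Hoxc8 ranged from -0.203 to 0.0567 for EpiSC minus ESC, from -0.127 to 0.197 for EpiSC minus ICM and from -0.0532 to 0.271 for ESC minus ICM. Hoxd13 ranged from -0.275 to 0.0696 for EpiSC minus ICM and from -0.0149 to 0.33 for ESC minus ICM. The cause was not tested.

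Samples that share a replicate number did not deviate together, with correlations from -0.0864 to 0.0421 over the 6 pairs of groups. The labels do not say whether the numbers pair the samples, and these correlations cannot exclude it. A replicate block left the counts at 1, 0, 0, 1, 0 and 0 for FGF-ESC minus ESC, FGF-ESC minus EpiSC, FGF-ESC minus ICM, EpiSC minus ESC, EpiSC minus ICM and ESC minus ICM. With 26 of 36 genes under the filter, their differences were not tested in the main comparisons.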
